A study of Mus musculus with 3 samples.

Results

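The chains and ligands of VLA-4 were followed in mouse hepatocyte RNA on 3 single-colour arrays. Members were the non-control spots that the array design names Itga4, Itgb1, Itgb7, Vcam1, Madcam1 or Fn1, and the rule found 10 spots of 43020. These are 10 probes of 60 bases for 6 genes, among 39429 probes for 31896 gene symbols. All mice were male wild-type C57BL/6, began their diet when 6 weeks old and were fed it for 16 weeks, to an age of 22 weeks. One array came from mice fed a standard diet, with no injection listed. Another came from mice fed a high-fat diet that received control IgG intraperitoneally (HFD-IgG), and the last from high-fat-fed mice that received an anti-VLA-4 blocking antibody by the same route (anti-VLA-4). Injections began after 10 weeks of the high-fat diet and were given 2 times a week for 6 weeks. Hepatocytes of all groups were freed with collagenase after an overnight fast, and the number of mice behind an array is not given in the labels.

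VLA-4 is the integrin of alpha4 (Itga4) and beta1 (Itgb1). Leukocytes use it to roll on, and adhere to, endothelium that displays VCAM-1 (Vcam1), an immunoglobulin-family protein induced by inflammatory cytokines, and to bind the alternatively spliced connecting segment of fibronectin (Fn1). Alpha4 also pairs with beta7 (Itgb7), and that integrin binds MAdCAM-1 (Madcam1), the addressin of gut venules. An antibody that blocks the protein acts outside the cell and does not target the transcripts. In liver, hepatocytes secrete plasma fibronectin, sinusoidal endothelial and Kupffer cells can display VCAM-1, and alpha4 is carried mainly by leukocytes.

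The probe decides which part of a transcript is read, so the members' probes are shown first, 5′ to 3′, as the files list them. Of these, 5 are given in full and 5 by their last 30 bases. Capitals mark the hexamer AATAAA, the sequence of the polyadenylation signal, in the brighter Madcam1 probe. The same hexamer in the dimmer Itga4 probe is left unmarked, and whether either serves as a signal was not looked up.
Itga4, brighter probe: gtcaactccattactttgtgtgctgaatta
Itga4, dimmer probe: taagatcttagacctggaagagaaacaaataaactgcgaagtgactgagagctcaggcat
Itgb1, brighter probe: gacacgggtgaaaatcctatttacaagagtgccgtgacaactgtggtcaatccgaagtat
Itgb1, dimmer probe: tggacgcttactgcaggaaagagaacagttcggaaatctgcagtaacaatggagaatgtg
Itgb7, only probe: gccattcccaccacacgaagggctggtcct
Vcam1, brighter probe: cactgggttgactttcaggtactactttct
Vcam1, dimmer probe: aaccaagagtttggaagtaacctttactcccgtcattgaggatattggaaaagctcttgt
Madcam1, brighter probe: tctgcctgctggcccagagctaAATAAAag
Madcam1, dimmer probe: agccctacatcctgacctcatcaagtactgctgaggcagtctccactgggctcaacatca
Fn1, only probe: ctttactactgtggaaagacaagtgtttta

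Probe coordinates follow the scanner files and refer to build mm9. The Itga4 probes lie on the plus strand of chromosome 2, the brighter at 79173193 to 79173252. The dimmer spans 79153985 to 79155115, which is 1131 bases for a 60-base probe, so it crosses an intron. The Itgb1 probes lie on the plus strand of chromosome 8. The brighter spans 131250081 to 131255976, again across intron sequence, and reads the end of the cytoplasmic tail to which talin and kindlin bind. The dimmer Itgb1 probe is at 131246349 to 131246408. The Itgb7 probe is on the minus strand of chromosome 15 at 102046450 to 102046509. The Vcam1 probes are on the minus strand of chromosome 3, at 115813216 to 115813275 (brighter) and 115828953 to 115829012 (dimmer). The Madcam1 probes are on the plus strand of chromosome 10, at 79131212 to 79131271 (brighter) and 79129132 to 79129191 (dimmer), and the Fn1 probe is on the minus strand of chromosome 1 at 71632116 to 71632175. Whether a probe lies in coding sequence or a UTR was not looked up in an annotation.

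Signals are given relative to the array's own 75th percentile over non-control spots, so 1 means a signal at that percentile. The scanner software called between 57.3% and 66.5% of the spots on an array well above background, and 0 saturated. The error given with each value is the scanner software's own estimate for that spot, which covers error within an array. With 1 array per group there is no replicate, no test and no p-value, and the number of arrays limits the precision. A gene is called different when its signals differ by at least 2-fold. Where the dimmer spot lacked that call, the ratio is a minimum, written "at least", taken against that spot's own signal or the array's dimmest signal with the call, whichever is higher. Such a minimum cannot point the other way, so it favours the array with the call. Counts and medians of gene lists include such minima. Brightness depends on the probe, so levels are compared between arrays and never between probes. Summed signals of a marker list are also compared between arrays only, and the brightest probes weigh most in them. Standard diet and HFD-IgG were hybridised on 1 slide and anti-VLA-4 on a different one, so the antibody cannot be told apart from the slide.

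**Figure D1:**
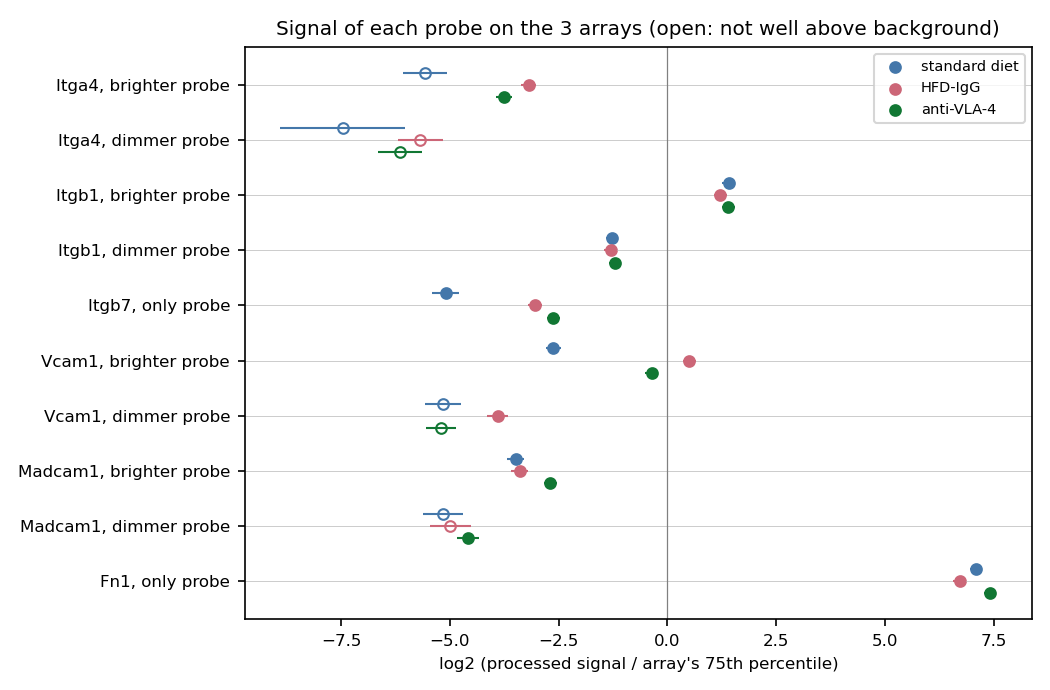
Signal of each of the 10 probes (rows) on the 3 arrays (colours), as log2 of the processed signal over the array's 75th percentile, with bars for 1 scanner error; open circles were not well above background. Itga4, Itgb7 and Vcam1 are lowest on the standard-diet array by their brighter or only probes, while the 3 arrays nearly coincide for Itgb1.

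Among the chains, Itga4 was near background in these preparations. Its brighter probe gave 0.0209 ± 0.0073 (scanner error) on the standard-diet array, 0.110 ± 0.014 on HFD-IgG and 0.0745 ± 0.0094 on anti-VLA-4. It was well above background on both high-fat arrays and not on the standard-diet array, where 4 of 153 negative control spots were at least as bright. On each high-fat array 0 of 153 were. The signal was thus at least 4.26-fold higher on HFD-IgG and at least 2.90-fold higher on anti-VLA-4 than on standard diet. Anti-VLA-4 was 1.47-fold below HFD-IgG, a log2 difference of -0.56 with a scanner error of 0.26. The dimmer, intron-crossing probe had the same order of signals, at 0.0057, 0.0196 and 0.0141, but was well above background on 0 arrays, and no fold is given for it.

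Itgb1, the common beta chain shared by many integrins, barely differed between arrays. The brighter probe gave 2.66 ± 0.27 on standard diet, 2.32 ± 0.23 on HFD-IgG and 2.64 ± 0.26 on anti-VLA-4. The log2 differences were -0.19 for HFD-IgG over standard diet, 0.19 for anti-VLA-4 over HFD-IgG and -0.01 for anti-VLA-4 over standard diet, each within its scanner error of 0.20. The dimmer probe, in another part of the transcript, gave 0.413, 0.406 and 0.433 on the same arrays, with log2 differences of -0.02, 0.09 and 0.07. No order of the arrays can be read from either probe.

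Itgb7 showed a step between the standard-diet array and both high-fat arrays. Its only probe gave 0.0293 ± 0.0063 on standard diet, 0.122 ± 0.014 on HFD-IgG and 0.162 ± 0.017 on anti-VLA-4, and was well above background on all 3. On the standard-diet array 4 of 153 negative control spots were as bright. The signal was 4.17-fold higher on HFD-IgG (log2 difference 2.06, scanner error 0.35) and 5.53-fold higher on anti-VLA-4 (2.47, scanner error 0.35) than on standard diet. Anti-VLA-4 was 1.33-fold above HFD-IgG (0.41, scanner error 0.22). That sign differs from that of Itga4, but under quantile scaling both were above 0 (0.93 for Itgb7 and 0.066 for Itga4), and with normexp background correction both were below 0 (-0.23 and -0.43).

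Among the ligands, Vcam1 moved most. Its brighter probe gave 0.163 ± 0.019 on standard diet, 1.42 ± 0.14 on HFD-IgG and 0.777 ± 0.078 on anti-VLA-4. Standard diet was lowest, HFD-IgG highest and anti-VLA-4 between them, with neighbours further apart than their scanner errors. The fold was 8.71 for HFD-IgG over standard diet (log2 difference 3.12, scanner error 0.22) and 4.78 for anti-VLA-4 over standard diet (2.26, scanner error 0.22). Anti-VLA-4 was 1.82-fold below HFD-IgG (-0.87, scanner error 0.20).

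The dimmer Vcam1 probe was also brightest on HFD-IgG, at 0.0281, 0.0669 and 0.0272. It was well above background on HFD-IgG alone, where the signal was at least 2.38-fold higher than on standard diet and at least 2.45-fold higher than on anti-VLA-4. Its signals on standard diet and anti-VLA-4 were both below that call and are not ordered. Both probes were thus lower on anti-VLA-4 than on HFD-IgG. Only the dimmer passed 2-fold, by less than its scanner error of 0.42 in log2 at the minimum given. Such a call was common for probes with a mean signal under an eighth of the percentile, as the dimmer has. Of those, 38.4% were at least 2-fold lower on anti-VLA-4 than on HFD-IgG, and 43.5% higher on HFD-IgG than on standard diet. For probes with over 50% to 60% purines (A or G), as in the dimmer, the shares were 18.3% and 22%.

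Madcam1 gave low signals on its dimmer probe, while its brighter probe was well above background on all 3 arrays. The brighter probe gave 0.0891 ± 0.0119 on standard diet, 0.0952 ± 0.0129 on HFD-IgG and 0.155 ± 0.016 on anti-VLA-4. The first pair differed by 0.10 in log2, within the scanner error of 0.27, but by -0.77 under quantile scaling and 1.61 with normexp. Anti-VLA-4 was 1.63-fold above HFD-IgG (0.70, scanner error 0.25) and 1.74-fold above standard diet (0.80, scanner error 0.25). The dimmer probe gave 0.0280, 0.0315 and 0.0419 and was well above background on anti-VLA-4 alone. There it was at least 1.33-fold above HFD-IgG, a minimum log2 difference of 0.41 that is within its scanner error of 0.54. Above standard diet the minimum was 0.58, with a scanner error of 0.53. Neither probe passed 2-fold.

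Fn1 was by far above the percentile on every array. Its only probe gave 137 ± 14 on standard diet, 105.2 ± 10.5 on HFD-IgG and 170.4 ± 17.0 on anti-VLA-4. HFD-IgG was lowest, 1.30-fold below standard diet (log2 difference -0.38, scanner error 0.20), and anti-VLA-4 was highest, 1.62-fold above HFD-IgG (0.70, scanner error 0.20) and 1.25-fold above standard diet (0.32, scanner error 0.20). All 3 differences are below 2-fold. With a single probe, the splice forms of Fn1 were not measured apart.

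**Figure D2:**
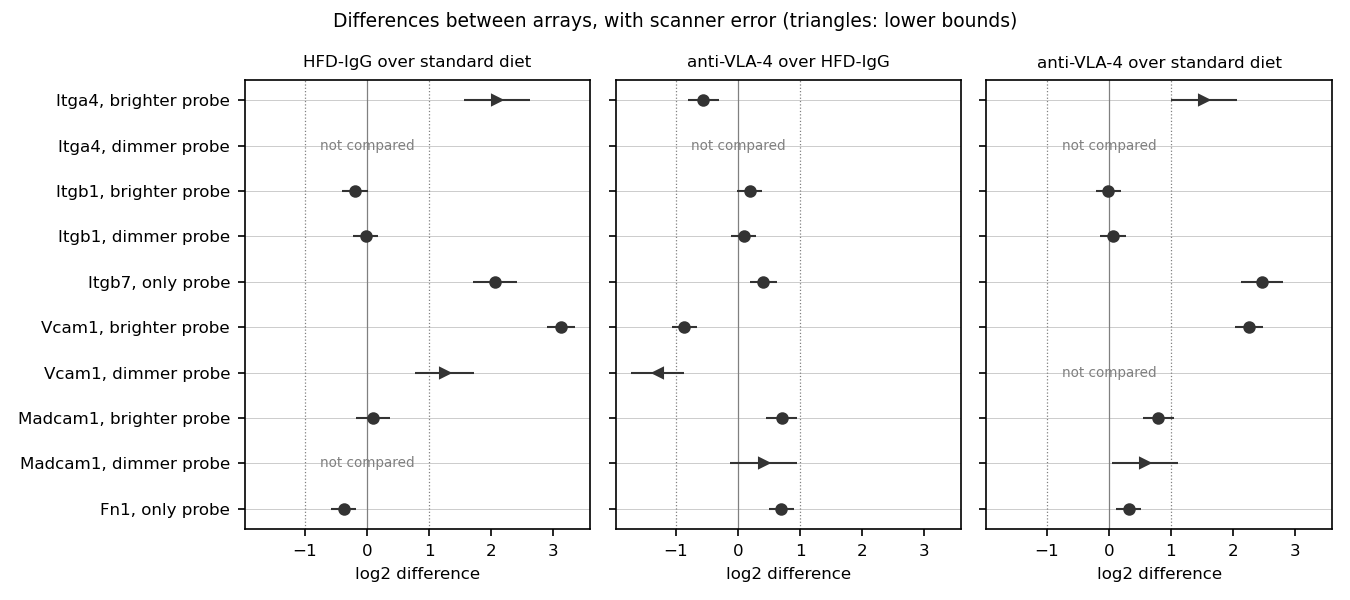
Log2 difference of each probe (rows) for the 3 pairs of arrays (panels), with bars for 1 scanner error, dotted lines at 2-fold, and triangles for lower bounds. Vcam1 lies at 3.12 and Itgb7 at 2.06 for HFD-IgG over standard diet, and both Itgb1 probes lie near 0 in every panel.

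The contrast of HFD-IgG with standard diet addresses the high-fat diet, although diet and injections differed together. Of the 6 genes, 3 were at least 2-fold higher (Itga4, Itgb7 and Vcam1), 0 were lower and 3 lay between (Itgb1, Madcam1 and Fn1), with a median log2 difference of 1.08. That median lies midway between Madcam1 and Itgb7 and was 0.10 over the 5 genes well above background on both arrays, of which 2 were called, 0.48 under quantile scaling, 0.49 with probes averaged and 1.78 with normexp background correction. Over all 22002 genes compared, 20.4% were higher by this rule and 2.41% lower, with a median of 0.04. Of the genes called in either direction, 89.4% were higher, against 47.5% under quantile scaling and 79.5% with cyclic loess. The shares of probes called higher depended on brightness and on the base composition of the probe. Probes with a mean signal under an eighth of the percentile, as those of Itga4 and Itgb7 had, were higher in 43.5% of cases. The share was 11.4% among probes with over 40% to 50% purines (A or G), where the brighter or only probes of Itga4 (50%), Itgb7 (48.3%) and Vcam1 (48.3%) fall. For probes that were both dim and in that purine range it was 25.5%. For the Vcam1 range of brightness, from an eighth of the percentile up to it, it was 9.07% at the same purine share.

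The contrast of anti-VLA-4 with HFD-IgG addresses the blocking antibody at equal diet. Of the 6 genes, 0 passed 2-fold by their leading probe, the one with the highest mean signal. Over all 22589 genes compared, 1.9% were at least 2-fold higher and 16.5% lower, so 10.3% of those called were higher, against 54.4% under quantile scaling and 31.2% with normexp background correction. At a 1.5-fold rule, Madcam1 and Fn1 were higher and Vcam1 was lower. By that rule 7.11% of all genes were higher and 23.3% lower. Among probes at or above the percentile, which include that of Fn1, 3.6% were at least 1.5-fold higher and 1.62% lower. Among probes with a mean signal under an eighth of the percentile, which include the dimmer Vcam1 probe, 2.87% were at least 2-fold higher and 38.4% lower.

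Anti-VLA-4 over standard diet, in which diet, injection, antibody and slide all differ, had the same 3 genes at least 2-fold higher and 0 lower. Of all 20334 genes compared, 7.98% were higher and 3.39% lower by that rule, so 70.2% of those called were higher, against 57.3% under quantile scaling and 93.5% with normexp. This comparison shares an array with each of the others, so it is no separate support for them.

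**Figure D3:**
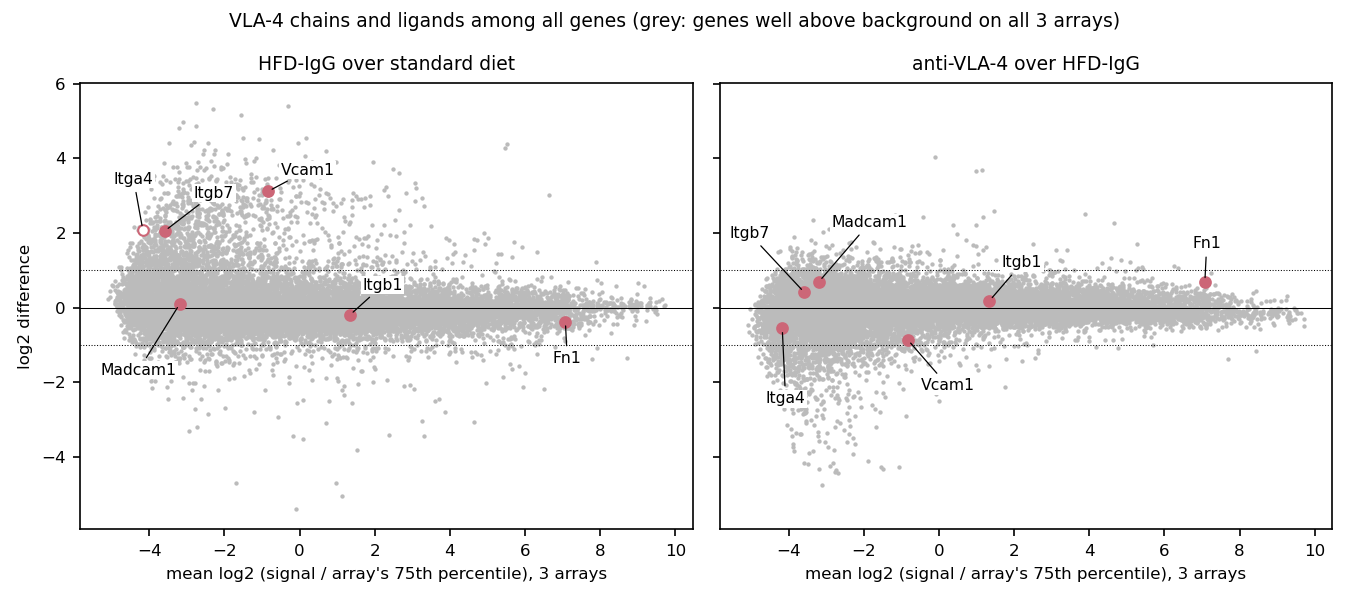
Log2 difference (vertical) against mean log2 signal over the 3 arrays (horizontal) for the 17036 genes well above background on all arrays (grey) and the 6 VLA-4 genes by leading probe (red; open, a lower bound), with dotted lines at 2-fold. Vcam1 stands at 3.12 in the left panel, Itga4 and Itgb7 lie in the dim range where many genes are higher on HFD-IgG, and Fn1 lies at 0.70 in the right panel.

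Hepatocyte identity of the RNA was borne out by its markers, since all 13, albumin and transferrin among them, were well above background on every array. Their summed signal was 4567, 4451 and 4397 times the percentile on standard diet, HFD-IgG and anti-VLA-4. Markers of other liver cells were detected too, and like Vcam1 those of endothelial, Kupffer and stellate cells were lowest in sum on standard diet and highest on HFD-IgG. For the counts below, 20.4% of all genes were at least 2-fold higher on HFD-IgG than on standard diet and 2.41% lower. On anti-VLA-4 against HFD-IgG, 1.9% were higher and 16.5% lower. Among 17 markers of sinusoidal endothelium, 15 were higher by 2-fold or more on HFD-IgG than on standard diet (median log2 difference 2.69), and 7 were lower and 0 higher on anti-VLA-4 than on HFD-IgG (median -0.98). Their summed signal was 18.9, 80.2 and 45.1 on the 3 arrays, of which Kdr, nearly equal on all, gave 9.07, 9.25 and 9.07. Of 16 Kupffer cell and macrophage markers, all 15 that could be compared were higher on HFD-IgG (median 2.83), and 1 was lower on anti-VLA-4 than on HFD-IgG (median -0.44). Their sums were 11.3, 74.7 and 56.4, and Cd163 was not well above background on any array. Of 15 stellate cell and fibroblast markers, 13 were higher on HFD-IgG (median 3.01) and 7 lower on anti-VLA-4 than on HFD-IgG (median -0.95), with sums of 5.10, 52.3 and 24.7. On standard diet only 6 stellate, 12 Kupffer cell and 14 endothelial markers were well above background, against 15, 15 and 17 on HFD-IgG. A marker with that call on HFD-IgG alone enters as a minimum, which could not come out lower there. The medians include such minima. The Vcam1 differences of 3.12 and -0.87 thus lie beside medians of 3.01 and -0.95 for stellate, 2.69 and -0.98 for endothelial and 2.83 and -0.44 for Kupffer cell markers. The part of any of these cells in the Vcam1 result was not tested. In bulk RNA, more cells of a type and more RNA per cell cannot be told apart.

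For the leukocyte chains the matching markers are those of leukocytes. Their counts stand beside 20.4% of all genes higher and 2.41% lower on HFD-IgG than on standard diet. Among probes under an eighth of the percentile, 43.5% were higher there. Between the high-fat arrays, 1.9% of all genes were higher and 16.5% lower on anti-VLA-4. Among probes under an eighth of the percentile, 2.87% were higher and 38.4% lower on anti-VLA-4. The 6 pan-leukocyte markers had a median log2 difference of 2.01 for HFD-IgG over standard diet, with 4 higher and 0 lower, and 0.09 for anti-VLA-4 over HFD-IgG, with 0 in either direction. Their sums were 5.01, 7.30 and 7.33, most of it on standard diet from Lcp1 (4.56, 3.68 and 4.28). Lcp1, the brightest, was the 1 marker of the 6 that was lower on HFD-IgG than on standard diet (-0.31). Cd52, the next brightest, was at 0.240, 2.60 and 1.99. Ptprc, the common leukocyte antigen CD45, was at 0.0389, 0.147 and 0.143 on the 3 arrays, a step like that of Itga4 and Itgb7. Of 17 T and NK cell markers, 12 could be compared on the first pair, with 5 higher and 1 lower (median 0.74). Between the high-fat arrays 1 of 14 was higher and 3 were lower on anti-VLA-4. Their sums were 29.0, 14.7 and 19.8, most of it from Cd4 alone (24.9, 10.8 and 15.6), and Cd8a, Gzmb and Klrb1c were not well above background on any array. Neutrophil and monocyte markers were higher for 5 and lower for 0 of 11 compared (median 0.82), and their sums of 68.3, 73.8 and 64.0 came mostly from Csf3r (66.2, 69.7 and 58.3). On anti-VLA-4, 2 of 12 were higher than on HFD-IgG, S100a8 by 4.09-fold and S100a9 by 4.62-fold, and 3 were lower, Ngp by at least 10.2-fold, Cxcr2 by at least 5.60-fold and Ccr2 by 2.87-fold. Of 8 B and plasma cell markers, 4, including Ms4a1 and Cd79a, were not well above background on any array, and the sums were 0.53, 0.66 and 0.64. Sums were 74.5, 75.4 and 73.9 for dendritic cell markers, nearly all Siglech. They were 0.45, 0.62 and 0.33 for cholangiocyte markers and 10.8, 14.2 and 15.9 for platelet and erythroid markers. In that order of lists, 1, 3 and 1 were higher and 0, 0 and 2 lower on HFD-IgG than on standard diet, of 5 compared in each list. Between the high-fat arrays 0, 3 and 1 were lower on anti-VLA-4 and 0 higher in each. On standard diet 5 pan-leukocyte, 6 T and NK cell and 8 neutrophil and monocyte markers were well above background, against 6, 11 and 10 on HFD-IgG. Markers with that call on HFD-IgG alone enter as minima that could not come out lower there. The part of any of these cells in the Itga4 and Itgb7 results was not tested.

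**Figure D4:**
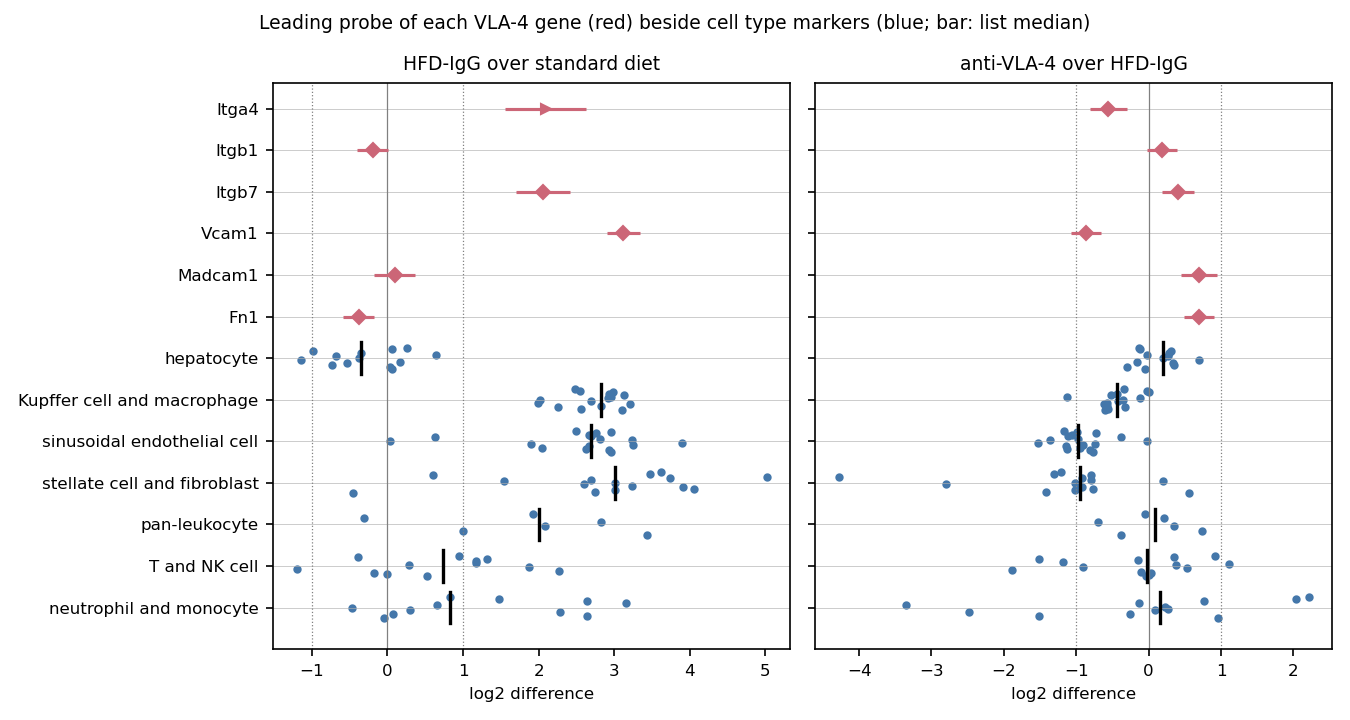
Log2 difference of the leading probe of each VLA-4 gene (red, with 1 scanner error; triangle, a lower bound) above the markers of 7 cell types (blue points, 1 per gene; black bar, list median), for HFD-IgG over standard diet and anti-VLA-4 over HFD-IgG. The marker points and bars include lower bounds. Vcam1 (3.12 and -0.87) lies near the bars of stellate (3.01 and -0.95) and endothelial (2.69 and -0.98) markers and, on the left, of Kupffer cell markers (2.83). Itgb1, Madcam1 and Fn1 lie in the range of the hepatocyte markers on the left, where the median over all genes (0.04, not drawn) also falls.

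The other ligands and partners of alpha4 were few. Over all genes, 20.4% were higher and 2.41% lower on HFD-IgG, and 1.9% higher and 16.5% lower on anti-VLA-4 against HFD-IgG. Of 5 compared, 4 were at least 2-fold higher on HFD-IgG and 0 lower (median 1.90), and on anti-VLA-4 3 of 6 were lower than on HFD-IgG and 0 higher (median -0.64). On standard diet 3 of these were well above background, against 5 on HFD-IgG, so some differences are minima that could not come out lower. Jam2, an endothelial junction protein that alpha4 beta1 can bind, was 2.98 higher in log2 on HFD-IgG and -1.45 on anti-VLA-4 against HFD-IgG. Spp1, osteopontin, was at 0.0854, 0.352 and 0.447 on the 3 arrays, so it was 2.04 higher in log2 on HFD-IgG and did not pass 2-fold between the high-fat arrays. Emilin1, a matrix glycoprotein bound by alpha4, was lower by -1.28 on anti-VLA-4.

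Of the other alpha chains that pair with beta1 or beta7, 5 of 10 compared were higher on HFD-IgG and 0 lower, and 4 of 10 were lower on anti-VLA-4 than on HFD-IgG and 0 higher, while Itgb1 itself stayed within its error. On standard diet 8 of these alpha chains were well above background, against 10 on HFD-IgG and 9 on anti-VLA-4, so some differences are one-sided minima. Itga9, a close relative of alpha4 that also binds VCAM-1, was 3.01 higher in log2 on HFD-IgG (0.0897 to 0.723). Itga3, a laminin receptor chain, was 1.69 higher there and -1.77 on anti-VLA-4 against HFD-IgG, and Itga8 was -1.13 in the latter. Among leukocyte adhesion receptors, 5 of 8 were higher on HFD-IgG and 0 lower, with Itgb2, the beta2 chain, at 1.81 and Cd44, a hyaluronan receptor, at 1.40. Only 5 of these receptors were well above background on standard diet, against 8 on HFD-IgG, so the rest are minima that could not come out lower. Against HFD-IgG, 0 of 9 were higher and 1 lower on anti-VLA-4. The shares over all genes were 20.4% higher and 2.41% lower on HFD-IgG, and 1.9% higher and 16.5% lower on anti-VLA-4 against HFD-IgG.

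The next list holds cytoplasmic proteins of integrin activation and adhesion, adaptors among them. Of 29 compared, 8 were at least 2-fold higher on HFD-IgG and 0 lower (median 0.26). This count, and that of the NF-kB list below, are near the 20.4% higher and 2.41% lower over all genes. On standard diet 24 genes of this list and 14 of the NF-kB list were well above background, against 29 and 16 on HFD-IgG. Between the high-fat arrays, 1.9% of all genes were higher and 16.5% lower on anti-VLA-4. Vav1, a blood cell exchange factor, was at 2.70 and Flna, filamin A, which binds beta tails, at 1.78. On anti-VLA-4, 2 of 30 were lower than on HFD-IgG and 0 higher (median -0.14). The list of endothelial activation and NF-kB genes, which holds inducers and companions of VCAM-1, had 4 of 16 higher on HFD-IgG and 1 lower (median 0.45). Icam2, an adhesion molecule of resting endothelium, was 3.07 higher and Relb, an NF-kB subunit, 2.14 higher, while Il1r1, the interleukin-1 receptor, was -1.25. Against HFD-IgG, anti-VLA-4 had 2 of 17 higher, Il1r1 at 1.69 and Il1b at 1.23, and 1 lower.

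Fn1 can be read beside the other adhesive plasma and matrix glycoproteins, and their counts beside those of all genes. Of all genes, 20.4% were higher and 2.41% lower on HFD-IgG, and 1.9% higher and 16.5% lower on anti-VLA-4 against HFD-IgG. Of 13 compared, 5 were higher on HFD-IgG and 0 lower (median 0.18), with Lamb1, a laminin chain, at 3.15 and Nid1, nidogen, at 1.94. In this list 11 were well above background on standard diet, 13 on HFD-IgG and 11 on anti-VLA-4, so some differences are one-sided minima. On anti-VLA-4, 1 of 13 was higher than on HFD-IgG and 3 were lower (median -0.31). The one higher was Fga, the fibrinogen alpha chain, which hepatocytes secrete like plasma fibronectin, at 1.06, from 27.7 to 57.9. The other fibrinogen chains stayed under 2-fold, Fgb from 567 to 710 and Fgg from 539 to 611, as did Vtn, from 211.5 to 259. Postn, periostin, was -1.46 and Lamb1 -1.08.

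Genes with the pattern most like each member were sought by the Euclidean distance over the 2 log2 differences HFD-IgG minus standard diet and anti-VLA-4 minus HFD-IgG, among 11726 named genes well above background on all 3 arrays. Both differences share the HFD-IgG array, and the distance describes these 3 arrays only. Nearest to Vcam1 were Trp53i11 (distance 0.06), Cmtm3 (0.10) and Cyp4b1 (0.10), and 51 genes lay within 0.25. For Itgb7 they were Cyp2a22 (0.03), Spp1 (0.07) and Coro1a (0.07), a leukocyte actin-binding protein, with 15 genes within 0.25. Fn1 had Card14 (0.018), Skint9 (0.021) and Cyp2c23 (0.023) nearest, and 315 genes within 0.25. Madcam1 had Tex22, Insig1 and Blm, with 212. Around Itgb1, near the centre of all genes, 2701 genes lay within 0.25. Itga4 was not well above background on all arrays and was not ranked.

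**Figure D5:**
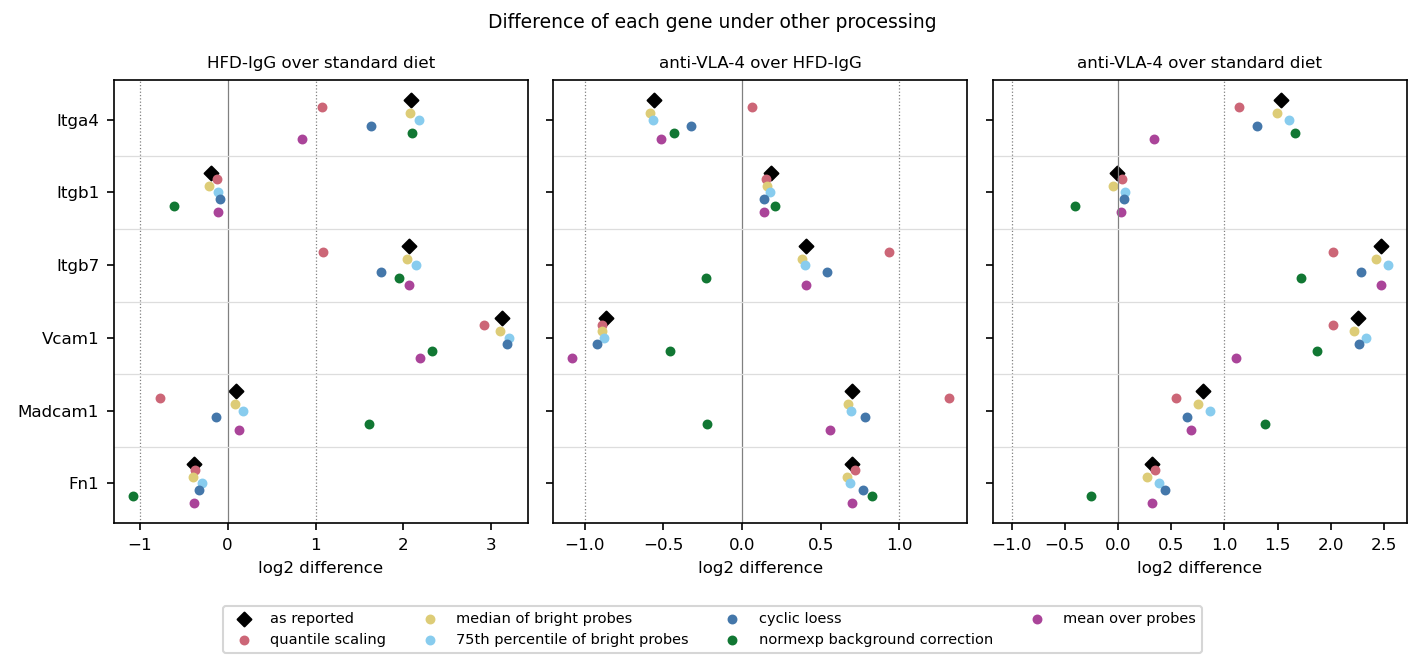
Log2 difference of each VLA-4 gene (rows) for the 3 pairs of arrays (panels) as reported (black) and under 6 other ways of processing (colours), with dotted lines at 2-fold. Vcam1 stays above 2-fold for HFD-IgG over standard diet in all of them, between 2.19 and 3.20, while Madcam1 ranges from -0.77 to 1.61 in the same panel.

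Other processing changed some of these values. Vcam1 and Itgb7 were at least 2-fold higher on HFD-IgG than on standard diet under each alternative that gave another value (6 for Vcam1, 5 for Itgb7), with Vcam1 between 2.19 and 3.20 and Itgb7 between 1.09 and 2.14 in log2. With its probes averaged, the minimum for Itga4 against standard diet no longer reached 2-fold (a log2 difference of at least 0.85 on HFD-IgG and at least 0.33 on anti-VLA-4). With normexp background correction Madcam1 passed 2-fold on HFD-IgG (1.61) and on anti-VLA-4 (1.38) against standard diet, and Fn1 fell on HFD-IgG (-1.08). The Itga4 difference between the high-fat arrays turned from -0.56 to 0.07 under quantile scaling. With normexp the Itgb7 difference between the high-fat arrays turned from 0.41 to -0.23, and that of Madcam1 from 0.70 to -0.22, while under quantile scaling Madcam1 passed 2-fold there (1.31). Averaging the probes took Vcam1 past 2-fold below HFD-IgG (-1.08). Fn1 stayed above HFD-IgG on anti-VLA-4 in all 5 alternatives that gave another value, between 0.67 and 0.83. The alternatives counted for Vcam1, Itgb7 and Fn1 include scalings by bright probes. Those shifted all members of a comparison by the same amount, below every scanner error, and say nothing of stability.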

How the data were processed

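RNA was labelled with Cy3 and hybridised to 3 single-colour arrays, 1 per group. The authors read spot intensities with Agilent Feature Extraction, whose version the submitters' processing notes give as 11.0.1.1. Spatial and multiplicative detrending were on, per the file headers. A second deposited table gives a linear ratio for 23206 spots, which matched the processed signal over each array's 75th percentile to within 2e-08. Its column medians were 0.79, 0.80 and 0.81. The deposited spot flags (other values, yes or no) come from the same software. Positions are on mm9.

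Levels were log2 of the processed signal over that percentile, which was 574, 500.3 and 514. Outlier spots were dropped, and repeat spots averaged. A RefSeq table of GRCm38.p6 named 26049 of 39429 probes, and the rest kept the array's name. A gene took its probe with the highest mean, and was compared when well above background on either array. The members and gene lists were chosen with earlier results of these data known. Genes named besides members were the 2 highest and 2 lowest past 2-fold of each pathway list, measured on both arrays, the 2 brightest markers of a cell type and those past 2-fold between the high-fat arrays, and the 3 nearest genes by pattern, which for Itgb1 are not reported here. Ptprc, Cd163, Cd8a, Gzmb, Klrb1c, Ms4a1, Cd79a, Fgb, Fgg, Vtn and the member of each small count were chosen after their values were seen. Steps were tested on simulated arrays. Alternatives were other scalings (limma 3.58.1 in R 4.3.3), normexp with offset 50, other filters and thresholds, probe averages and the deposited table. Python 3.11.15, numpy 2.4.6 and pandas 2.3.3 were used.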

Additional observations from a re-analysis of the deposited data

How the results depend on the processing

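No paired analysis was possible because each group has 1 array, and for the same reason no replicate could be left out. Of 141 member differences under the alternatives, 39 equal the reported value, among them all from the deposited table or with outlier spots kept, and say nothing of stability. Of the other 102, 76 moved by less than the scanner error and 26 by more. The 76 include all values from scaling each array by the median or a high percentile of its bright probes. Such scaling shifted all members of a comparison by the same amount, below every scanner error. Those values say nothing of stability either. The sign changed in 10 differences under 2-fold and in 0 that were called. Quantile scaling gave, for HFD-IgG over standard diet, at least 1.07 for Itga4, 1.09 for Itgb7 and -0.77 for Madcam1. For anti-VLA-4 over HFD-IgG it gave 0.066 for Itga4, 0.93 for Itgb7 and 1.31 for Madcam1, so 1 member passed 2-fold. For anti-VLA-4 over standard diet it gave 2.02 for both Itgb7 and Vcam1 and 0.54 for Madcam1. Normexp gave, in the first comparison, -0.61 for Itgb1, 2.33 for Vcam1, 1.61 for Madcam1 and -1.08 for Fn1, with 5 members past 2-fold. In the second it gave -0.23 for Itgb7, -0.46 for Vcam1 and -0.22 for Madcam1, and in the last -0.40 for Itgb1, 1.72 for Itgb7, 1.87 for Vcam1, 1.38 for Madcam1 and -0.25 for Fn1. Averaging the probes of a gene gave at least 0.85 for Itga4 and 2.19 for Vcam1 in the first comparison. It gave -1.08 for Vcam1 in the second, with 1 member past 2-fold, and at least 0.33 for Itga4 and 1.11 for Vcam1 in the last. At 1.5-fold, 3 members were called for anti-VLA-4 over HFD-IgG. The cause of these shifts was not tested.

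Counts of all genes called, in the same order of comparisons, were 5029, 4150 and 2313 as reported. They were 9719, 218 and 6531 with normexp, 7862, 6876 and 5238 at 1.5-fold, and 3030, 2275 and 1004 at 3-fold. They were 1900, 1513 and 1399 for genes well above background on both arrays and 8561, 7542 and 5246 with no filter. The median over all genes was 0.04, -0.06 and 0.00 as reported and 0.46, -0.14 and 0.27 with normexp, and it was -0.06, 0.05 and -0.02 under quantile scaling. Itga4 has no entry in the deposited value table used here. Signals near background limit Itga4, Itgb7 on standard diet, and the dimmer Madcam1 and Vcam1 probes.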
